A study of Homo sapiens with 4 samples.

Results

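Transfer RNAs are chemically modified after they are transcribed, and the enzymes for these changes are encoded by a set of 59 genes followed here in H9 cells, an established human embryonic stem cell line, in libraries labelled SLC35F2 knockout and in controls. The set was a given list of gene symbols, sorted into 9 pathways by the modification that each enzyme makes, and 5 of the 59 genes serve queuosine while 54 serve other modifications. Each symbol matched 1 of the 60483 gene identifiers in the count tables, with QNG1 found under its older symbol C9orf64. All 59 had enough reads to be tested, within 19027 tested genes. The groups were 2 libraries from SLC35F2 knockout (KO) cells and 2 libraries from control cells. Both were made from the WA09 (H9) line, and no label gives a drug, a time point, a clone or a separate culture. p-values therefore measure only the spread between these libraries, and the source of that spread was not tested. It was large for some genes outside the 59. PUS7L had 1 read in KO 1 and 1248 in KO 2, and TYW3 had 1452 and 5. RNA was measured by sequencing of stranded libraries made from messenger RNA, and the transfer RNAs and their modifications themselves were not analysed here.

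Queuosine replaces a guanosine at the first anticodon base of the transfer RNAs for histidine, asparagine, aspartate and tyrosine. Human cells cannot make its base, queuine, and take it up from food and gut bacteria or, in culture, from serum. QTRT1 and QTRT2 form the enzyme that puts queuine into transfer RNA. QNG1 releases queuine from queuosine monophosphate, so that the queuine can be used again. GTDC1 and B3GNTL1, also called QTMAN and QTGAL, attach mannose and galactose to queuosine in the transfer RNAs for aspartate and tyrosine. SLC35F2 has been described as a carrier that brings queuine and queuosine into cells, which is why the queuosine genes are set against the other modification pathways here.

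The DNA just before the start of the 3 genes of queuine insertion and recovery is shown because QNG1 had by far the largest difference among the queuosine genes, and QTRT1 and QTRT2 encode the enzyme that uses the queuine it releases. The sequences are RefSeq's, on GRCh38.p14, cover the 250 bases before the start of the RNA and are written 5′ to 3′ on the strand of the gene, with each CG dinucleotide in capitals. CG reads the same on both strands.
QNG1, chr9:83956743-83956992, minus strand: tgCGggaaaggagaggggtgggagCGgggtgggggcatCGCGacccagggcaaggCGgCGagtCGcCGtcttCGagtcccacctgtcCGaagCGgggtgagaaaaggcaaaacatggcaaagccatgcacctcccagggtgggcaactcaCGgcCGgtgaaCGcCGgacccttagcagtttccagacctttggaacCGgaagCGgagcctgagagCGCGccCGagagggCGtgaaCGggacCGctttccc
QTRT1, chr19:10701189-10701438, plus strand: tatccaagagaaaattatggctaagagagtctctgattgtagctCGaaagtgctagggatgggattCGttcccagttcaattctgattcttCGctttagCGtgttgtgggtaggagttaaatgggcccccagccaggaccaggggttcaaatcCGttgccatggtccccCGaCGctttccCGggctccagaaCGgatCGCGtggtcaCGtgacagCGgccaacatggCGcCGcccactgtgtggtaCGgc
QTRT2, chr3:114056487-114056736, plus strand: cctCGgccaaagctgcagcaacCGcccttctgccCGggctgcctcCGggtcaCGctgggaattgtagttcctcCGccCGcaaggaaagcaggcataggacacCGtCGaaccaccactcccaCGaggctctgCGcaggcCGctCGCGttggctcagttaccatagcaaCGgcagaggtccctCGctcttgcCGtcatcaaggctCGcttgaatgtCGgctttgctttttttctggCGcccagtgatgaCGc
The QNG1 window held 23 CG, the QTRT1 window 16 and the QTRT2 window 21. Of 35116 promoters in the RefSeq table, 25.8% had at least as many CG as QNG1, 41.0% as many as QTRT1 and 30.2% as many as QTRT2, and the median was 11. RefSeq windows were matched for 49 of the 59 genes, and those held between 5 and 43 CG with a median of 20. The start of the QNG1 window's RNA lies 244 bases inside the gene as GENCODE 29 draws it, and that of QTRT2 lies 50904 bases inside, so both genes have other annotated starts.

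The KO libraries held 27824693 and 36943597 reads assigned to genes, and the control libraries held 37978705 and 32423108. Of the 10 stem cell markers all were tested, with a summed normalised level of 8072 and 5704 CPM in KO and 7369 and 7541 CPM in control (CPM, reads per 1000000 of the scaled library). Mesoderm markers summed to 2.51 and 0.702 CPM in KO and 3.60 and 5.01 CPM in control. Endoderm markers summed to 1.20 and 0.176 CPM in KO and 1.14 and 2.65 CPM in control, and trophoblast and amnion markers to 0.291 and 2.72 CPM in KO and 1.35 and 15.4 CPM in control. The neuroectoderm list stood at 104 and 226 CPM in KO and 125 and 134 CPM in control, nearly all of it OTX2, with 102 and 224 CPM in KO and 123 and 133 CPM in control. The fibroblast list stood at 569 and 1110 CPM in KO and 540 and 874 CPM in control, while its members DCN and LUM had at most 4 reads in any library. Among the stem cell markers NANOG was lower in both KO libraries, with 46.2 and 19.1 CPM in KO against 61.2 and 64.7 CPM in control, and LIN28A was higher in both. No marker was at 0 in all 4 libraries, and CDX2, of the trophoblast and amnion list, was at 0 in both KO libraries against 16 and 11 reads in control. GATA3 of that list had 0 and 52 reads in KO against 8 and 33 in control. The others of the list were highest in control 2. GATA2 had 3 and 5 reads in KO against 19 and 305 in control. TFAP2A had 5 and 33 against 7 and 118, and HAND1 had 0 and 3 against 1 and 79. In bulk RNA, fewer cells of a kind and less RNA per cell cannot be told apart, and the part of other cell types in the results below was not tested.

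SLC35F2, the targeted gene, had 12.1 and 9.65 CPM in KO, from 332 and 330 reads, against 41.1 and 27.1 CPM in control, from 1550 and 964 reads. Its level was lower in both KO libraries, and RNA of the gene was still present. The log2 fold change, KO over control, was -1.65 ± 0.35 (SE), and its 95% confidence interval ran from -2.46 to -0.85. The adjusted p (Benjamini-Hochberg) was 0.58 in edgeR's quasi-likelihood test and 0.00843 in DESeq2. The labels do not give the part of the gene that the knockout altered, so counts over the whole gene check the labels only in part.

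QNG1 stood apart from the other 58 genes. QNG1 is a protein-coding gene (ENSG00000165118.13) at chr9:83938311-83956986 of GRCh38, read from the minus strand. It had 3 reads in KO 1 and 1 read in KO 2, against 92 reads in control 1 and 88 in control 2. These counts are 0.109 and 0.0292 CPM in KO and 2.44 and 2.48 CPM in control. Both KO libraries were close to 0, the controls lay close together, and the groups did not overlap. The means were 0.0692 ± 0.0565 CPM in KO and 2.46 ± 0.0275 CPM in control (SD, n = 2 each), and the log2 fold change was -5.16 ± 0.86 (SE, 95% interval -7.06 to -3.26). Summed over each group, QNG1 had 4 reads in KO and 180 in control, a level 37.9-fold lower in KO with an exact 95% interval from 14.5-fold to 141-fold that covers counting error only.

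The difference in QNG1 did not pass the threshold over all genes in edgeR, where its unadjusted p of 0.000111 ranked 13th of 19027 genes and its adjusted p was 0.162. DESeq2 called QNG1 with an adjusted p of 0.00026. It called 60 of the 16813 genes that it gave an adjusted p (0.357%). Without KO 1 edgeR also called QNG1 (adjusted p = 0.000339), in a fit that called 5.31% of all genes, and without KO 2 (adjusted p = 0.0168) in a fit that called 0.927%. Both fits take the spread of the controls for the KO library that remains. Over all 12 alternatives its log2 fold change ran from -6.22 to -4.45 and its adjusted p from 0.00026 to 0.909, the highest value without control 2. Per kilobase of annotated exon QNG1 had 0.0400 and 0.0107 CPM in KO against 0.893 and 0.908 CPM in control. By this measure it ranked last of the 59 genes in both KO libraries, and 56th in control 1 and 55th in control 2, where it was already among the least abundant.

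**Figure D1:**
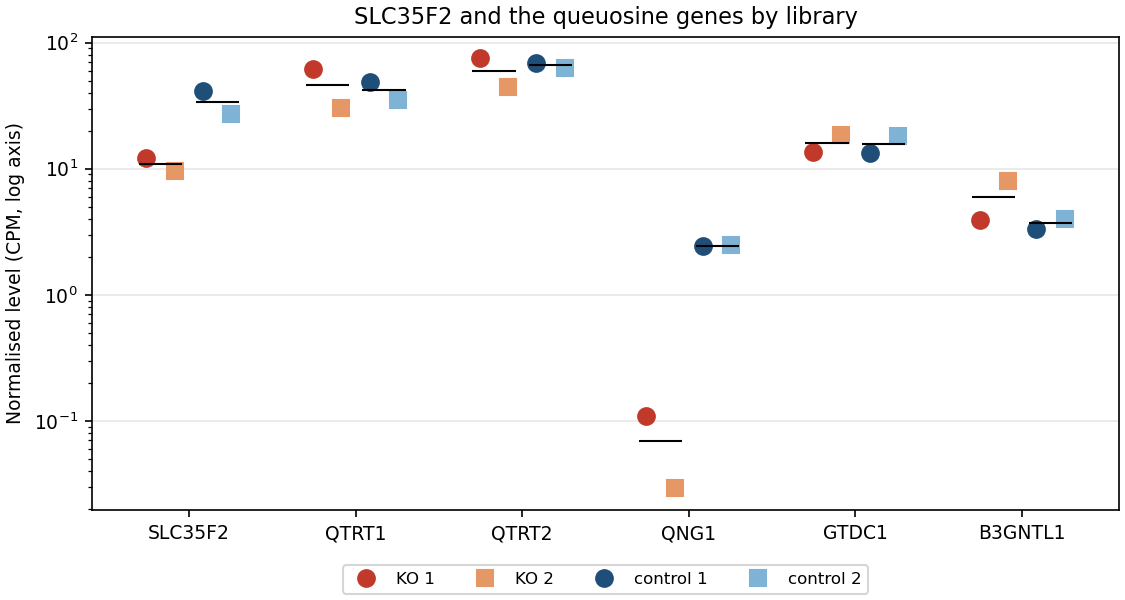
Normalised level in CPM on a log axis for SLC35F2 and the 5 queuosine genes, with 1 point per library (KO libraries left of controls) and a black line at each group's mean. QNG1 lies at 0.109 and 0.0292 CPM in KO against 2.44 and 2.48 CPM in control, while QTRT1, QTRT2, GTDC1 and B3GNTL1 overlap between the groups.

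The protein-coding genes around QNG1 were read in all 4 libraries. On one side HNRNPK, which encodes an abundant RNA-binding protein and lies 11097 bases from QNG1, had 1174 and 1071 CPM in KO against 1101 and 757 CPM in control. Its log2 fold change was 0.27 with a 95% confidence interval from -0.35 to 0.89. On the other side KIF27, a kinesin gene 16846 bases away, had 2.84 and 6.11 CPM in KO against 2.62 and 5.58 CPM in control (log2 fold change 0.15, interval -1.16 to 1.45). RMI1, a subunit of the complex that dissolves crossed DNA strands, had 43.4 and 34.5 CPM in KO against 40.7 and 27.1 CPM in control. Within 300 kb of QNG1 lay 8 genes with more than 20 reads in total, 6 of them protein coding, and edgeR gave each an adjusted p of 0.997. The fewest reads of any of the 8 in a KO library were 14, for UBQLN1-AS1, an antisense RNA that had 16 and 14 reads in KO against 29 and 39 reads in control. No other annotated gene shares exon bases with QNG1 on either strand, so the reads of QNG1 were not split with an overlapping gene.

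**Figure D2:**
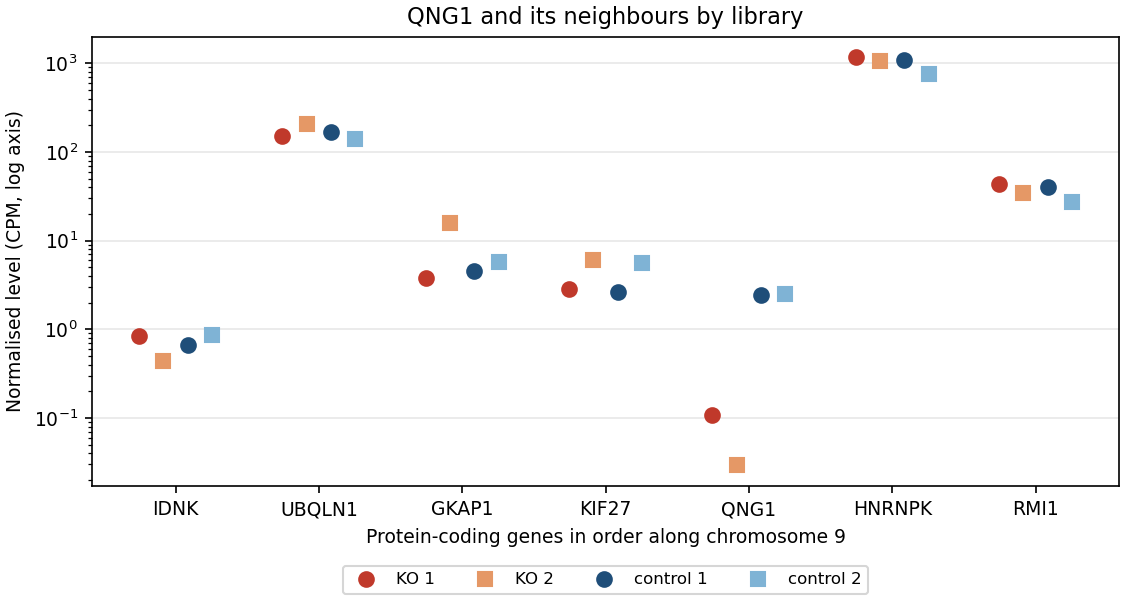
Normalised level in CPM on a log axis for QNG1 and the protein-coding genes within 300 kb with more than 20 reads in total, in their order along chromosome 9, with 1 point per library and KO libraries left of controls. QNG1 alone has KO points near 0.1 CPM or below beside control points above 2 CPM.

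QTRT1 and QTRT2 were both transcribed in every library, and their groups overlapped. QTRT1 (chr19:10701430-10713437, plus strand), the catalytic subunit, had 61.3 and 30.5 CPM in KO against 48.9 and 34.9 CPM in control. KO 1 was the highest and KO 2 the lowest of the 4 libraries. Its log2 fold change was 0.13 ± 0.38 (SE), with an interval from -0.73 to 0.99, and it turned to -0.45 without KO 1 and to -0.09 without control 2. QTRT2 (chr3:114005833-114088422, plus strand), the partner subunit, had 75.1 and 44.7 CPM in KO against 69.5 and 63.1 CPM in control. KO 1 was again the highest and KO 2 the lowest (log2 fold change -0.15 ± 0.32, interval -0.87 to 0.57, and 0.18 without KO 2). Per kilobase of annotated exon the ratio of QTRT1 to QTRT2 was 1.92 and 1.60 in KO against 1.65 and 1.30 in control. These ratios overlapped, and an exact two-sided permutation test over the 4 libraries gave p = 0.667, where 2 against 2 libraries cannot go below 0.333.

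The genes for the sugars on queuosine were transcribed at lower levels per length. GTDC1, the mannosyltransferase, had 13.6 and 18.6 CPM in KO against 13.2 and 18.1 CPM in control, so the 2 ranges overlapped almost wholly. Its log2 fold change was 0.05 ± 0.36 (interval -0.77 to 0.87), and its sign turned under library size only and without control 1 or KO 2. B3GNTL1, the galactosyltransferase, had 3.93 and 8.01 CPM in KO against 3.34 and 4.03 CPM in control. KO 2 stood above the other 3 libraries, which lay close together, and the log2 fold change of 0.71 ± 0.51 (interval -0.44 to 1.86) was 1.14 without KO 1 and 0.10 without KO 2. B3GNTL1 shares 11.4% of its exon bases with TBCD on the opposite strand, and the strand setting of the counting is not given in the sources used here.

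Set against the other pathways, the queuosine genes stood apart through QNG1, and their median depended on the libraries used. Over the 5 genes the median log2 fold change was 0.05, over the 54 others 0.03 and over all genes tested 0.03. Without KO 1 the medians were -0.45 for the queuosine genes and -0.12 for the 54 others, and without control 1 they were -0.07 and 0.13. No test was made of this difference between lists. Without QNG1 the other 4 queuosine genes ranged from -0.15 to 0.71, and the 54 genes of other pathways from -0.75 to 0.74, with a 95% interval that included 0 for each of the 54. By edgeR's adjusted p no gene of the 59 was called, where 0.0263% of all genes tested were. Limma-voom called none of the 59, but it called 0 of all 19027 genes. DESeq2 called QNG1 alone of the 59, where it called 0.357% of genes. With a replicate term edgeR also called QNG1 alone, among 76 of 19027 genes. At an unadjusted p under 0.05 there was 1 member, QNG1, among 59 genes, where 4.06% of all genes tested lay under it. Of the 59 genes 8 lay lower in each KO library than in either control (13.6%, against 16.3% of all genes tested) and 11 were higher (18.6%, against 15.8%), so both shares were near those of all genes.

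**Figure D3:**
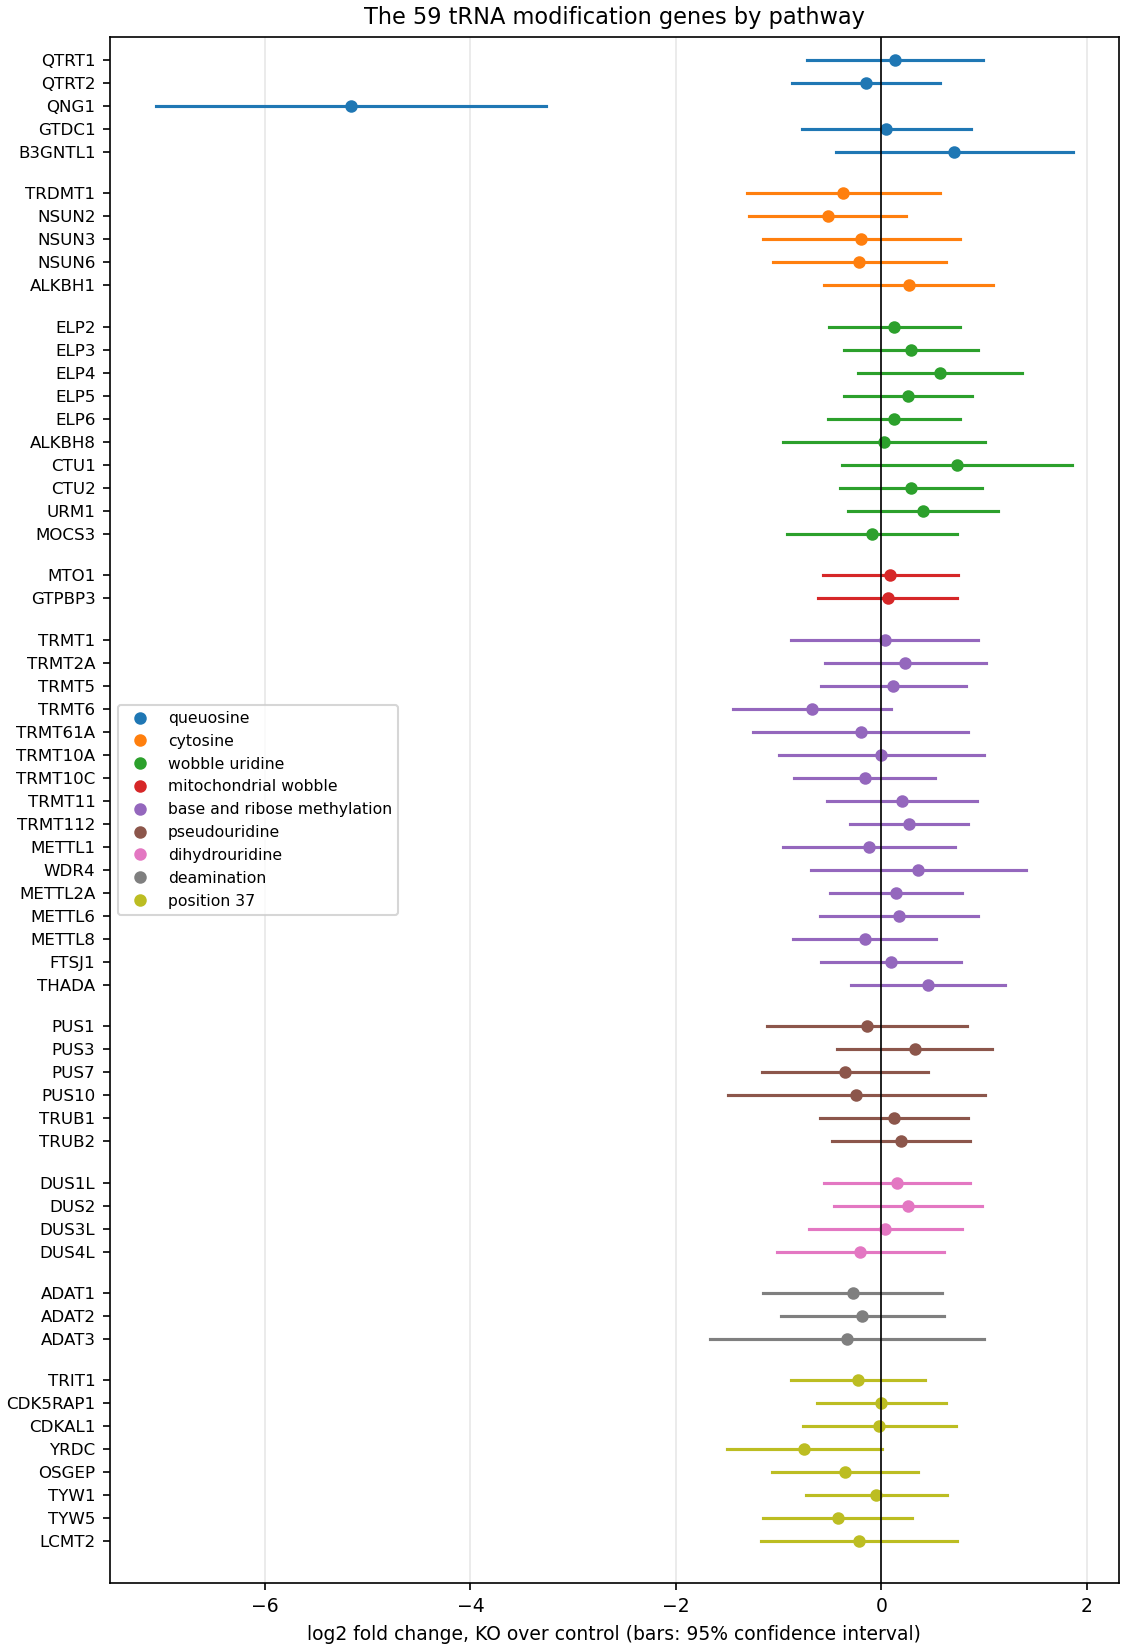
The log2 fold change, KO over control, of the 59 genes with its 95% confidence interval from edgeR, grouped and coloured by pathway. The interval of QNG1 runs from -7.06 to -3.26, and those of the other 58 genes include 0.

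Levels per kilobase of annotated exon ranged 0.371 to 105 CPM over the 59 genes, with a median of 6.58. TRMT112, a small partner protein that several methyltransferases need, including TRMT11 and ALKBH8, was the most abundant, with 117 and 112 CPM per kilobase in KO against 99.9 and 90.6 in control. TRMT1, which methylates a guanosine between the arms of many transfer RNAs, came next with 43.7 and 19.7 CPM per kilobase in KO against 37.1 and 24.9 in control. TRMT10C, a methyltransferase that is also a subunit of mitochondrial RNase P, had 29.1 and 22.6 CPM per kilobase in KO against 33.7 and 24.1 in control. TRMT112 did not overlap between the groups, while TRMT1 and TRMT10C did. At the low end stood PUS10, a pseudouridine synthase, with 0.261 and 0.413 CPM per kilobase in KO against 0.284 and 0.526 in control, followed by QNG1 and B3GNTL1. Among the 59, QTRT1 ranked 10th, QTRT2 28th, GTDC1 53rd, B3GNTL1 57th and QNG1 58th by the mean per kilobase. QTRT1 and QTRT2 ranked 7th and 15th when the longest annotated transcript was used as the length, and ranks of genes with many annotated exons depend on that choice.

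In the wobble uridine pathway, which builds side chains and a sulphur on the first anticodon base of several transfer RNAs, 5 of 10 genes were higher in both KO libraries and none was lower, where 15.8% of all genes tested were higher and 16.3% lower. The median log2 fold change was 0.27, and 9 of 10 values were positive, as were 10038 of all 19027. None of the 10 passed the test. Elongator starts the side chain, and its catalytic subunit ELP3 had 37.1 and 40.9 CPM in KO against 28.8 and 35.2 CPM in control. ELP4, of the Elongator subcomplex that also holds ELP5 and ELP6, had 18.7 and 29.1 CPM in KO against 14.8 and 17.4 CPM in control, with KO 2 well above the rest (log2 fold change 0.57 ± 0.35, interval -0.23 to 1.37). ELP5 was also higher in both KO libraries (0.25, interval -0.37 to 0.88), while ELP2 (0.12) and ELP6 (0.12) overlapped. Of the exon bases of ELP4 19.6% lie opposite PAX6 and a non-coding RNA.

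CTU1 and CTU2 form the enzyme that adds the sulphur. CTU1 had 3.96 and 3.45 CPM in KO against 2.49 and 1.94 CPM in control, from 69 to 118 reads a library (log2 fold change 0.74 ± 0.49, interval -0.39 to 1.86). CTU2 had 30.8 and 30.8 CPM in KO against 28.7 and 21.7 CPM in control (0.29 ± 0.30). Neither overlapped between the groups, and neither passed the test. URM1, the ubiquitin-like protein that carries the sulphur, had 68.9 and 56.9 CPM in KO against 59.2 and 35.9 CPM in control, and MOCS3, which activates URM1, was at -0.09 (interval -0.92 to 0.74). ALKBH8 finishes the side chain and lies 225245 bases from SLC35F2 on chromosome 11, and it had 24.5 and 12.1 CPM in KO against 22.3 and 13.5 CPM in control (log2 fold change 0.03, interval -0.96 to 1.01).

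The direction of the wobble uridine genes depended in part on scaling. With library size only, all genes tested had a median of -0.10 in place of 0.03. Relative to all genes the wobble uridine genes stood at 0.24 with either scaling. This relative value was 0.37 without control 1 and 0.10 without control 2. With library size only 7 of 10 values were positive, as were 7631 of all 19027. Higher in both KO libraries were then 2 of 10 genes, and 1937 of all 19027. The mitochondrial counterparts MTO1 and GTPBP3, which build taurine side chains on wobble uridines of mitochondrial transfer RNAs, were at 0.09 and 0.06, both not called, and their median of 0.07 turned to -0.05 with library size only.

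Of the 8 members sorted under the base next to the anticodon, 3 were lower in both KO libraries and none was higher. Of all genes tested 16.3% were lower, and the median log2 fold change of the 8 was -0.22. With library size only 5 of 8 were lower, as were 4057 of 19027 genes. All 8 values were negative, as were 8989 of all 19027, and CDK5RAP1 and CDKAL1 were so by less than 0.03. With RLE factors and with DESeq2 7 were negative, and with a library left out 5 to 7 were. None of the 8 passed the test. TRMT5 (0.12) and ADAT1 (-0.28), which also act on the base next to the anticodon, were sorted into other pathways. Both overlapped between the groups. YRDC, which makes the activated threonyl intermediate of the threonylcarbamoyl modification, had 24.7 and 17.4 CPM in KO against 29.8 and 41.0 CPM in control. Both KO libraries lay below both controls (log2 fold change -0.75 ± 0.33, with an interval that ended at 0.003, edgeR unadjusted p = 0.0507 and adjusted p = 0.997). YRDC shares 27.9% of its exon bases with C1orf122 on the opposite strand. OSGEP, the enzyme that transfers the group, had 44.8 and 28.6 CPM in KO against 49.4 and 44.4 CPM in control, and KO 1 overlapped the controls (-0.35, interval -1.07 to 0.36).

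Other genes of that position showed smaller gaps. TYW5, a hydroxylase of wybutosine, had 24.8 and 17.5 CPM in KO against 27.8 and 29.1 CPM in control (log2 fold change -0.43 ± 0.32). TRIT1, which adds an isopentenyl group, had 28.0 and 26.2 CPM in KO against 32.5 and 30.9 CPM in control (-0.23 ± 0.29). Both were lower in both KO libraries and neither was called. TYW1 (-0.05) and LCMT2 (-0.22), which act earlier and later on wybutosine, and the methylthiotransferases CDK5RAP1 (-0.001) and CDKAL1 (-0.02), overlapped between the groups. TYW1 has a near-identical copy, TYW1B, and their reads may not be fully separated.

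Of the 5 genes that act on cytosine 1 was lower in both KO libraries and none was higher, near the shares of all genes (16.3% lower and 15.8% higher), and the median log2 fold change was -0.21. TRDMT1, also called DNMT2, methylates a cytosine of the transfer RNA for aspartate, and queuosine in that transfer RNA is known to favour its action. It had 20.7 and 11.9 CPM in KO against 26.7 and 15.4 CPM in control. KO 2 was the lowest and control 1 the highest, and the groups overlapped (log2 fold change -0.37 ± 0.41, interval -1.31 to 0.57, and 0.09 without control 1). NSUN2, the main cytosine methyltransferase of transfer RNAs, had 134 and 74.7 CPM in KO against 171 and 129 CPM in control, with KO 2 lowest and KO 1 between the controls (-0.52, interval -1.28 to 0.24). NSUN3, which acts on a mitochondrial transfer RNA, had 5.16 and 6.23 CPM in KO against 6.52 and 6.59 CPM in control. NSUN6 was at -0.21, and ALKBH1, which oxidises the mark made by NSUN3, was at 0.27.

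Of the 16 genes for methylation of bases and riboses 1 was lower and 3 were higher in both KO libraries, where 16.3% of all genes were lower and 15.8% higher. The median log2 fold change was 0.10, and none was called. TRMT6, which binds transfer RNA beside the catalytic TRMT61A, had 31.2 and 18.8 CPM in KO against 44.3 and 35.4 CPM in control. It was lower in both KO libraries (-0.68 ± 0.34, interval -1.45 to 0.09, edgeR unadjusted p = 0.0782). TRMT61A had 47.9 and 18.5 CPM in KO against 46.7 and 29.5 CPM in control and overlapped. The ratio of TRMT6 to TRMT61A per kilobase of exon was 0.556 and 0.870 in KO against 0.811 and 1.03 in control, so the ratios overlapped as well.

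The 3 higher genes of that pathway were TRMT112, METTL2A and THADA. TRMT112 had 190 and 183 CPM in KO against 162 and 147 CPM in control (log2 fold change 0.27 ± 0.25, interval -0.30 to 0.84), and 17.5% of its exon bases lie opposite ESRRA. THADA, the partner of the ribose methyltransferase FTSJ1 in modifying the anticodon loop, had 43.1 and 47.4 CPM in KO against 41.8 and 24.3 CPM in control, with control 2 far below the other 3 libraries (0.45 ± 0.33, and 0.11 without control 2). FTSJ1 itself had 57.5 and 45.7 CPM in KO against 56.0 and 40.7 CPM in control. METTL2A was at 0.14, but it has a near-identical copy, METTL2B, at 0.15, and reads may be split between them. METTL1, the catalytic subunit that methylates a guanosine of the variable loop, had 27.3 and 14.8 CPM in KO against 23.9 and 21.9 CPM in control, and its partner WDR4 had 49.1 and 22.1 CPM in KO against 36.5 and 18.8 CPM in control. The remaining members of the pathway, TRMT1, TRMT2A, TRMT5, TRMT10A, TRMT10C, TRMT11, METTL6 and METTL8, overlapped between the groups with log2 fold changes from -0.16 to 0.23.

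The genes for pseudouridine, dihydrouridine and inosine showed no call either. In both KO libraries 1 of 6, 1 of 4 and 0 of 3 of them were higher, and 0, 1 and 1 were lower. Of all genes tested 15.8% were higher and 16.3% lower. PUS3, a pseudouridine synthase of the anticodon stem, had 18.6 and 18.6 CPM in KO against 13.3 and 16.5 CPM in control, the 1 pseudouridine gene of 6 whose groups did not overlap (log2 fold change 0.32 ± 0.33). PUS1 had 90.2 and 35.9 CPM in KO against 80.9 and 58.1 CPM in control, so the KO libraries lay on both sides of the controls. Among the dihydrouridine synthases DUS2 was higher in both KO libraries (0.26, interval -0.46 to 0.98) and DUS4L was lower, with a mean of 10.9 ± 0.181 CPM in KO against 12.6 ± 1.12 CPM in control (SD, n = 2 each; log2 fold change -0.21 ± 0.36). DUS1L and DUS3L overlapped, as did PUS7, PUS10, TRUB1 and TRUB2 among the pseudouridine genes. ADAT2, catalytic in the enzyme that makes inosine at the first anticodon base, had 11.7 and 11.2 CPM in KO against 12.9 and 13.2 CPM in control. Its partner ADAT3 had 1.71 and 1.49 CPM in KO against 2.70 and 1.30 CPM in control, from 46 to 102 reads a library, and shares 35.4% of its exon bases with SCAMP4 on the same strand. ADAT1, which makes inosine beside the anticodon of the transfer RNA for alanine, had 25.0 and 12.9 CPM in KO against 21.1 and 24.8 CPM in control.

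The KO libraries differed from each other more than the groups did for most of the 59 genes. For 41 of 59 genes the difference between the group means was smaller than the gap between KO 1 and KO 2 on the log2 scale, as it was for 12980 of all 19027. The median gap was 0.45 between the KO libraries and 0.29 between the controls, against 0.53 and 0.36 over all genes tested. KO 1 was above KO 2 for 45 of 59 genes, where it was above for 9499 of all 19027. The controls leaned the same way, with control 1 above control 2 for 40 of 59 genes, against 9324 of 19027. KO 2 was the lowest of the 4 libraries for 29 of 59 genes, against 6140 of 19027. TRMT1 had 147 and 66.2 CPM in KO against 125 and 83.6 CPM in control, an example of this order, with a log2 fold change of 0.03 that was -0.64 without KO 1 and 0.50 without KO 2.

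**Figure D4:**
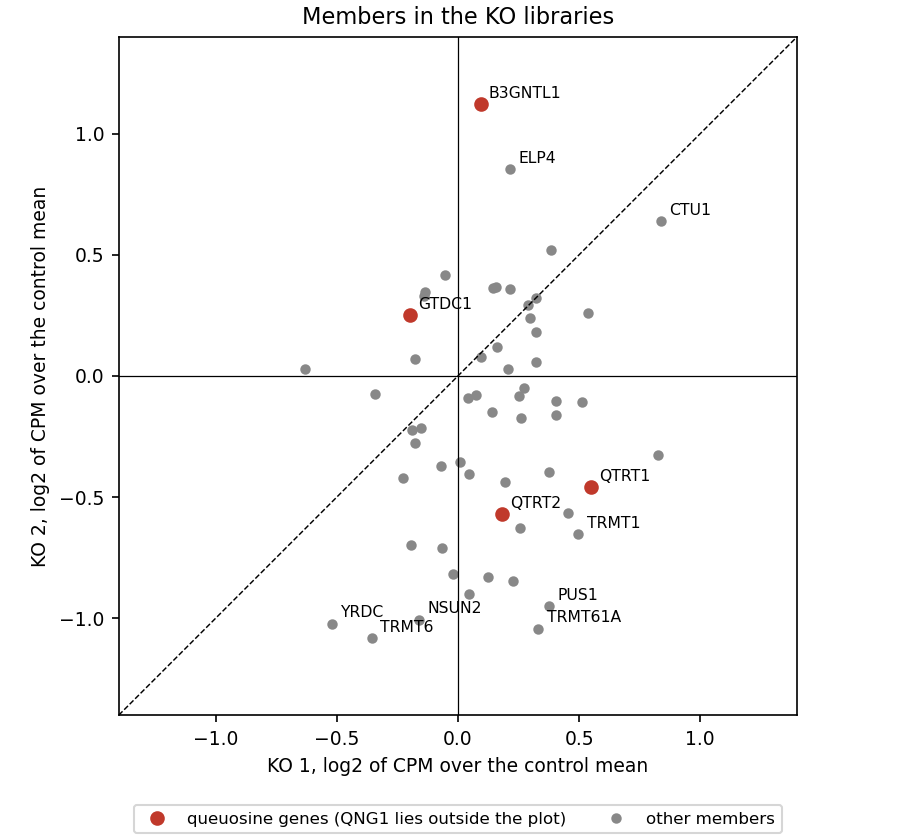
Log2 of the level in KO 1 (x axis) and KO 2 (y axis) over the control mean for 58 of the 59 genes, with the 4 plotted queuosine genes in red and equal values on the dashed line. QNG1 lies below the range shown, and more genes lie below the dashed line, where KO 1 exceeds KO 2, than above it.

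A list of 41 further transfer RNA modification genes outside the 59 also held no called gene. All were tested and edgeR called none, where it called 0.0263% of all genes tested. The median log2 fold change was 0.15, against 0.03 over all genes tested. In both KO libraries 5 of the 41 stood lower and 9 stood higher than the controls (12.2% and 22.0%, against 16.3% and 15.8% of all genes). A pair of genes in the list was nearly absent from 1 KO library each. PUS7L, related to the pseudouridine synthase PUS7, had 1 read in KO 1 and 1248 reads in KO 2, against 369 and 325 reads in control, and its neighbour IRAK4, 127 bases away, had 2 and 298 reads in KO against 43 and 92 reads in control. TYW3, a methyltransferase of wybutosine, had 1452 reads in KO 1 and 5 reads in KO 2, against 1806 and 1266 reads in control, and CRYZ, which overlaps it on the opposite strand, had 1091 and 3 reads in KO against 1310 and 801 reads in control. Among these 100 genes QNG1 was the 1 with at most 3 reads in each KO library and at least 50 in each control, limits chosen after the values were seen.

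Synthetases that charge the queuosine transfer RNAs for histidine, asparagine and tyrosine showed overlapping groups and no call in edgeR. Most genes did so, as 12908 of all 19027 overlapped and edgeR called 0.0263%. The cytosolic HARS1, NARS1 and YARS1 and the mitochondrial HARS2, NARS2 and YARS2 had log2 fold changes from -0.07 for YARS1 to 0.10 for NARS2. HARS1, the cytosolic enzyme for histidine, had 68.5 and 67.4 CPM in KO against 73.6 and 54.2 CPM in control (0.09, interval -0.55 to 0.72). NARS1, the cytosolic enzyme for asparagine, had 258 and 256 CPM in KO against 291 and 217 CPM in control (0.02, interval -0.59 to 0.62).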

How the data were processed

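The 4 files hold raw read counts per gene, deposited by the authors without further scaling. The submitters' processing notes name GRCh38 and, without their roles or order, HTSeq 0.11.0, STAR 2.6.0a, cutadapt 1.8.1 and FastQC 0.11.7. The labels' protocols also name a quantile normalisation, which the whole-number deposited counts do not carry. Neither the annotation release nor the strand setting is given in the sources used here. Between 14.4% and 20.3% of reads were assigned to no gene and left out.

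Gene names, positions and exon lengths came from GENCODE 29, which matched 93.8% of the identifiers without version. Counts were tested with edgeR 4.0.16 (quasi-likelihood, TMM factors, filterByExpr minimum count 10, Benjamini-Hochberg threshold 0.05) in R 4.3.3, KO against control, 2 libraries each, and the scripts were tested on simulated data. Alternatives were other scaling, filters, DESeq2 1.42.0, limma-voom 3.58.1, edgeR's legacy fit, a replicate term and each library left out. Library pairs of a group differed by more than sampling noise, so none was a copy.

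The members and lists were chosen with earlier results of these data known. Genes described with full statistics were SLC35F2, the queuosine genes, TRDMT1, members with an unadjusted p under 0.05, the 6 highest and 6 lowest fold changes among members whose groups did not overlap, and the 3 most and 3 least abundant per kilobase. Other members are given by their levels or ranges. A few genes of the wider lists are not reported here.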

Additional observations from a re-analysis of the deposited data

How the results depend on the processing

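Over the whole table edgeR called 5 genes, against 0 with library size only (787 at an unadjusted p under 0.05), 0 with a mean CPM of at least 1 (518), 0 with limma-voom (681), 1 with the legacy fit, 8 with no filter, 60 with DESeq2 and 3 to 1096 with a library left out, the most without KO 1. Among the 59 genes, 1 was called with DESeq2, and 0 to 1 with a library left out, QNG1 each time. With library size only 4 of the 59 were higher and 11 lower in both KO libraries, as were 1937 and 4057 of all 19027. With a library left out, a looser criterion, the count higher ran from 15 (without control 2, 5469 of 19981 genes) to 33 (without KO 2, 6903 of 20282), and the count lower from 11 (without control 1, 6603 of 20254) to 30 (without KO 1, 7803 of 20642). The queuosine median ran from -0.45 (without KO 1) to 0.10 (without KO 2), where the other 54 genes stood at -0.12 and 0.16. SLC35F2 was called with DESeq2 at -1.65, and ran from -1.92 to -1.31 with a library left out.

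The replicate numbers are not tied to a shared culture or day in the labels, and the differences between replicates 1 and 2 in KO and in control correlated at 0.38 over 19027 genes. With the replicate block 76 genes were called, 1 of the 59 among them (QNG1, adjusted p = 0.00143), SLC35F2 was called at -1.63, and TRMT1 stood at -0.049.

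Small values changed sign. With library size only GTDC1 was -0.096 and TRMT1 -0.064, and with limma-voom TRMT1 was -0.058. With a library left out QTRT1 ran from -0.45 to 0.55, QTRT2 from -0.56 to 0.18, GTDC1 from -0.20 to 0.29, TRDMT1 from -0.81 to 0.094, TRMT1 from -0.64 to 0.50, TRMT10C from -0.39 to 0.11 and PUS10 from -0.62 to 0.26. Of the 59 genes 35 changed sign in at least 1 of 12 alternatives, none with a log2 fold change beyond 0.37 in size, and the cause was not tested. With 2 libraries a group the 95% interval of the median gene reached 0.76 to each side on the log2 scale.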

Other observations

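Over all genes tested, 6 had at most 3 reads in each KO library and at least 50 in each control, limits chosen after the values were seen. Besides QNG1 these were OR52A1, TRIM61, MT1M, AC106872.5 and ZNF595. The olfactory receptor gene OR52A1 had 3 and 3 reads in KO against 103 and 78 in control. TRIM61, of the tripartite motif family, had 0 and 0 reads in KO against 70 and 80 in control. The metallothionein gene MT1M had 2 and 0 reads in KO against 122 and 151 in control. The pseudogene AC106872.5 had 0 and 1 reads in KO against 92 and 99 in control. The zinc finger gene ZNF595 had 2 and 1 reads in KO against 158 and 117 in control. TRIM61, AC106872.5 and ZNF595 lie on chromosome 4, OR52A1 on chromosome 11, MT1M on chromosome 16 and QNG1 on chromosome 9. Over the 6 genes edgeR's adjusted p ran from 0.0588 for ZNF595 to 0.304 for TRIM61.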
